A study of Mus musculus with 17 samples.

Results

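Mouse embryonic stem (ES) cells that lack *Nanog* were compared, before any serum, with control ES cells that had been in serum for 24 h. The question was which genes of the *Nanog* KO already stood at the level of control cells that had left 2i, and which did not. The *Nanog* KO group was 3 libraries of the BT12 line (genotype Nanog KO) at 0 h, grown with LIF, with serum replacement, and with CHIR-99021 and PD0325901 (the inhibitors of 2i). The control group was 3 libraries of the parental E14Tg2a line (genotype WT) at 24 h after serum was added and 2i and LIF were taken away. Both lines had been kept over inactivated mouse embryonic fibroblasts. The other libraries of the 17 were *Nanog* KO cells at 12 and 24 h and control cells at 12 h, with 3 libraries each, and control cells at 0 h, with 2. All genes that reached 1 CPM in 3 or more of the 17 libraries were taken, which were 15117 of the 15470 rows of the table. The third-highest CPM of a gene was 1.0023 for the gene just inside this limit and 0.9973 for the gene just outside.

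The groups compared differed in genotype, cell line, medium and time in serum at once, and these cannot be told apart in this comparison. The *Nanog* KO was represented by a single line. In bulk RNA, fewer cells of a type and less RNA per cell cannot be told apart either. Whether replicates came from separate cultures is not stated, so the p-values reflect a variation among libraries that may be technical in origin. Depth was 19777267 to 23922556 reads in *Nanog* KO libraries at 0 h and 19155552 to 26209279 reads in control libraries at 24 h. A gene with no read in a library may still have had a level of up to 3 reads, which was 0.131 to 0.159 CPM in *Nanog* KO and 0.110 to 0.152 CPM in control libraries (counting error alone). CPM here are read counts relative to a library size scaled by TMM, a method that balances libraries on genes that change little.

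*Nanog* (ENSMUSG00000012396, chromosome 6 from 122707489 to 122714633 of GRCm38), the targeted gene, had 31.7, 34.6 and 32.1 CPM in *Nanog* KO cells at 0 h, against 271, 313 and 311 CPM in control cells at 24 h. The groups did not overlap, and 24 h in serum had not brought the control near the *Nanog* KO. The log2 difference was -3.15 ± 0.08 (SE), with an adjusted p of 6.37e-16 (limma). Control cells at 0 h had 412 and 411 CPM. The ES cell label was borne out by the markers: *Pou5f1*, *Sox2*, *Zfp42* and *Dppa5a* stood above 300 CPM in every one of the 6 libraries.

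ES cells in 2i/LIF are held in the naive state, in which a MEK inhibitor blocks FGF/ERK signalling, a GSK3 inhibitor stabilises β-catenin and LIF activates STAT3. Removal of the inhibitors and of LIF lets the cells pass to a formative state, with loss of naive factors and gain of *Otx2*, *Pou3f1*, *Fgf5* and the de novo DNA methyltransferases. NANOG is a homeodomain factor of the naive network whose loss makes ES cells more prone to leave it, although they can still be propagated.

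Over all genes the *Nanog* KO at 0 h and the control at 24 h were about equally often apart in each direction. Of the 15117 genes tested, 4694 (31.1%) were higher and 4908 (32.5%) lower in *Nanog* KO at an adjusted p under 0.05, from limma on log2(CPM + 1) with Benjamini-Hochberg adjustment over all of them. A difference of at least 1 on the log2 scale, here called 2-fold, was met by 842 (5.57%) higher and 866 (5.73%) lower genes. A gene was called at the same level when its difference was shown to lie within 0.5 (log2) by 2 one-sided tests on the same fit, at an adjusted p under 0.05. This held for 6442 genes (42.6%), of which 2386 were also called different by a small amount. The other 6967 genes were in neither class. The median difference of all genes was -0.02. The shares of all genes given here are the background for the counts of every gene list below. They were not matched to the expression level of a list. The same-level share was 52.0% among genes averaging 5 CPM or more and 17.7% among lower ones. Adding 1 CPM lowers the difference of low genes, and edgeR's quasi-likelihood test on the reads recovered from the CPM called 1501 genes 2-fold lower.

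**Figure D1:**
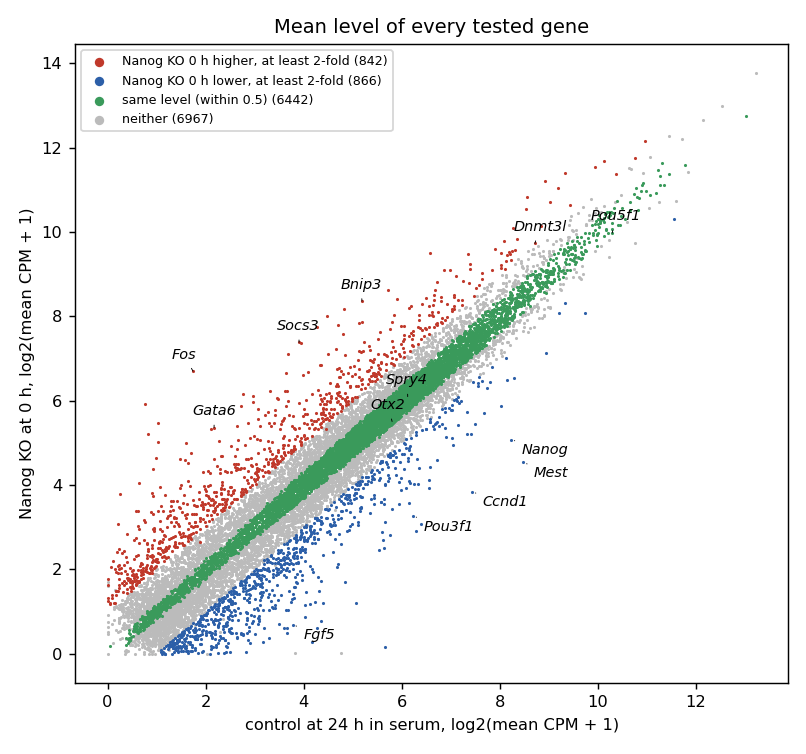
Mean level of each tested gene in *Nanog* KO at 0 h (vertical axis) against control at 24 h in serum (horizontal axis), both as log2(mean CPM + 1), with 1 point a gene and n = 3 libraries a group. The 6442 genes called at the same level lie along the diagonal, and *Fos*, *Socs3*, *Bnip3* and *Gata6* stand above it and *Nanog*, *Mest*, *Ccnd1*, *Pou3f1* and *Fgf5* below it.

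Genes that answered to serum in the control were mostly not yet at the control 24 h level in the *Nanog* KO. These genes were taken from control cells at 12 h against control cells at 0 h (a called change of at least 1 on the log2 scale), libraries that are in neither group of the comparison. Of 301 genes that rose in control cells by 12 h (1.99% of all tested), 232 (77.1%) were lower in *Nanog* KO at 0 h than in control at 24 h, and 111 (36.9%) were 2-fold lower. Their median difference was -0.80, and edgeR on the reads, which chose a larger set of rising genes, called 332 of its own set 2-fold lower. Of 440 genes that fell in control cells by 12 h (2.91%), 282 (64.1%) were higher in *Nanog* KO, 172 (39.1%) by 2-fold, with a median difference of 0.71.

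A minority of this response was already at the control 24 h level. The same level was called for 27 of the 301 rising genes (8.97%) and 51 of the 440 falling genes (11.6%), against 44.3% of the 14376 genes with no such 12 h response. A further 39 falling genes (8.86%, against 5.73% of all genes) were 2-fold lower still in *Nanog* KO at 0 h than in the control at 24 h. Another 4 rising genes (1.33%, against 5.57% of all genes) were 2-fold higher. With the genes limited to those still at least 1 from 0 h the same way at 24 h, which uses the control 24 h libraries themselves, the same level was called for 17 of 225 rising and 38 of 363 falling genes. The count of 4 was 2 without control 0 h replicate 2 and 9 without control 0 h replicate 3.

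**Figure D2:**
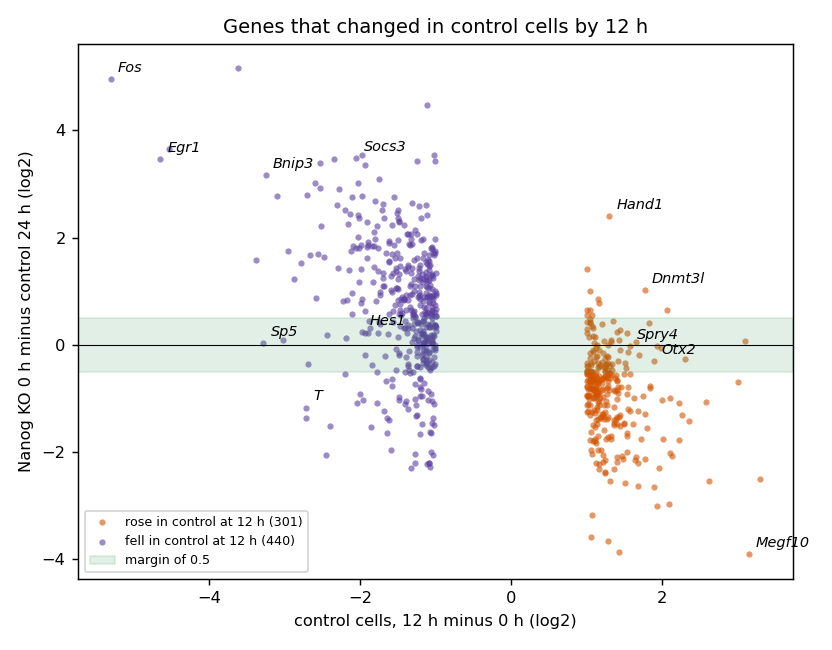
Change of each gene in control cells by 12 h (horizontal axis, log2, 12 h minus 0 h) against the difference of *Nanog* KO at 0 h minus control at 24 h (vertical axis, log2), for 301 rising and 440 falling genes. Most rising genes lie below the shaded margin of 0.5 and most falling genes above it, while *Spry4*, *Otx2*, *Sp5* and *Hes1* lie inside.

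The rising genes at the same level included receptors, surface enzymes and transcription factors. *Spry4*, a feedback inhibitor of receptor tyrosine kinase signalling, had 64, 68 and 70.4 CPM in *Nanog* KO cells at 0 h, against 65.1, 72.4 and 68.5 CPM in control cells at 24 h. The control at 0 h had 22.6 and 26.1 CPM, so the *Nanog* KO libraries in 2i overlapped with the control after serum and were all above the control in the same medium. The difference was -0.025 ± 0.059 (SE), with an adjusted p of 0.73 for a difference (limma). *Enpp3*, an ectonucleotidase, had 86.7, 90.3 and 91.2 CPM in *Nanog* KO cells, against 90.9, 88.9 and 90.1 CPM in control cells at 24 h and a mean of 31.3 CPM in control cells at 0 h. *Pecam1*, an adhesion molecule carried by naive ES cells as well as by endothelium, had 75.8, 73.9 and 77.6 CPM in *Nanog* KO and 69.2, 74 and 72.9 CPM in control cells at 24 h, with a mean of 34.5 CPM in control cells at 0 h. In each of the 3 genes the ranges of *Nanog* KO at 0 h and control at 24 h overlapped.

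*Epas1*, which encodes the hypoxia-inducible factor HIF-2α, averaged 68.5 ± 3.34 CPM in *Nanog* KO and 56.3 ± 2.57 CPM in control cells at 24 h (SD, n = 3 each), with a mean of 14.1 CPM in control cells at 0 h. It was slightly higher in *Nanog* KO (0.28 ± 0.07 on the log2 scale, SE, limma adjusted p = 0.00297) and still within the margin. *Folr1*, a folate receptor, averaged 86.1 ± 3.01 CPM in *Nanog* KO and 80.5 ± 8.07 CPM in control cells at 24 h, with a mean of 38.1 CPM in control cells at 0 h. *Icosl*, *Ppfibp2* and *Sptbn4* were at the same level too, at differences of 0.046, 0.23 and -0.0093. None of these 8 same-level calls was lost when any single library was left out.

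*Otx2*, a homeodomain factor that drives the step from naive to formative pluripotency, was a borderline case. It had 45.9, 44.5 and 43.1 CPM in *Nanog* KO cells at 0 h, against 57.3, 53.6 and 53.8 CPM in control cells at 24 h, and 6.89 and 7.34 CPM in control cells at 0 h. Every *Nanog* KO library was below every control library at 24 h and far above the control in the same medium. The difference was -0.30 ± 0.08 (SE, limma adjusted p = 0.00504). The same-level call of *Otx2* was lost without *Nanog* KO 0 h replicate 1 or 2 or control 24 h replicate 2 or 3, at differences of -0.32 to -0.30. *Zfp819*, a zinc finger gene, averaged 15.9 ± 0.857 CPM in *Nanog* KO and 19.9 ± 1.4 CPM in control cells at 24 h, and its call was lost without *Nanog* KO 0 h replicate 3 or control 24 h replicate 1 or 3, at -0.33.

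**Figure D3:**
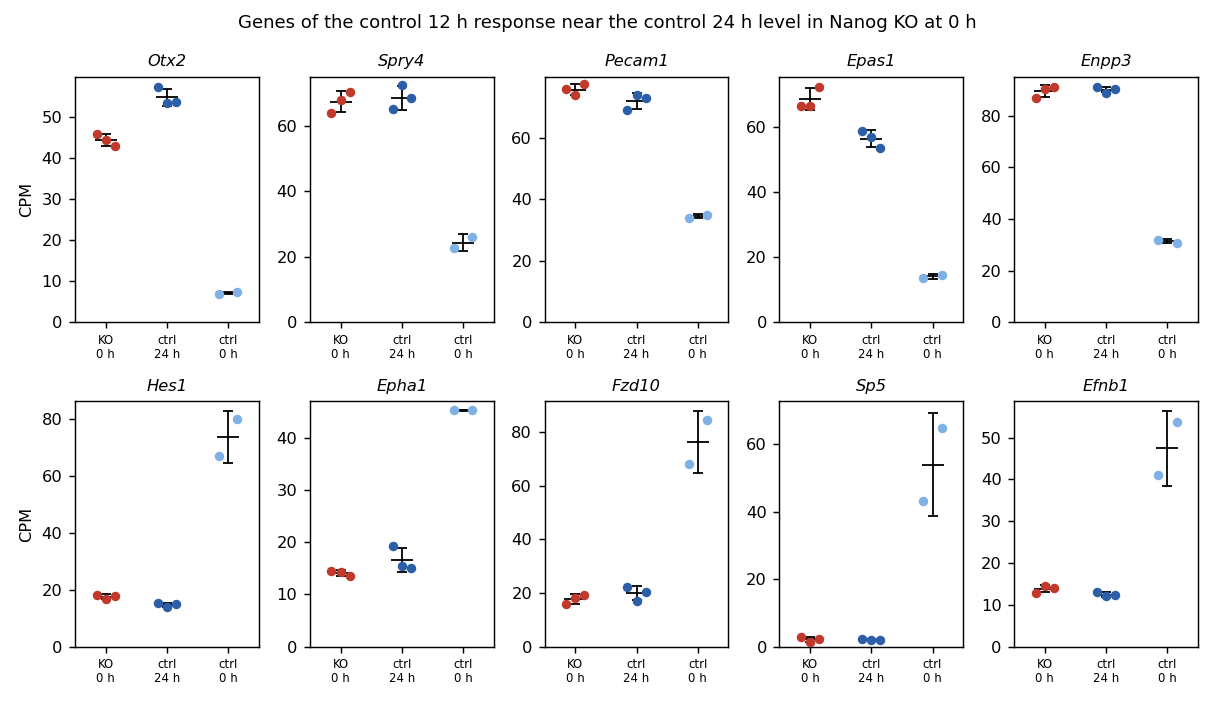
CPM per library in *Nanog* KO at 0 h, control at 24 h and control at 0 h (left to right in each panel) for 5 genes that rose and 5 that fell in control cells, with means and SD as horizontal marks and bars (n = 3, 3 and 2). These genes were chosen for a change in control cells and a same-level call. By that choice the *Nanog* KO libraries lie by the control 24 h libraries and apart from the control 0 h libraries.

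The falling genes at the same level were of varied kind. *Hes1*, a repressor induced by Notch, had 18.2, 16.7 and 17.9 CPM in *Nanog* KO cells at 0 h, against 15.2, 14 and 14.9 CPM in control cells at 24 h, and 67.2 and 80.2 CPM in control cells at 0 h. Its libraries in *Nanog* KO were all above those of the control at 24 h, but by 0.24 ± 0.08 (SE, limma adjusted p = 0.0153). *Epha1*, an ephrin receptor, averaged 14.1 ± 0.539 CPM in *Nanog* KO and 16.6 ± 2.26 CPM in control cells at 24 h, with a mean of 45.3 CPM in control cells at 0 h. *Efnb1*, an ephrin ligand, averaged 13.8 ± 0.877 CPM in *Nanog* KO and 12.4 ± 0.533 CPM in control cells at 24 h, with a mean of 47.4 CPM in control cells at 0 h. These 3 calls held without any single library.

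*Sp5*, a direct Wnt/β-catenin target that encodes a repressor of the SP family, had 2.86, 1.43 and 2.23 CPM in *Nanog* KO cells at 0 h, against 2.23, 1.88 and 2.02 CPM in control cells at 24 h, and 43.1 and 64.8 CPM in control cells at 0 h. The *Nanog* KO libraries, from medium with the GSK3 inhibitor, bracketed those of the control at 24 h. At these low values the difference of 0.038 ± 0.19 (SE) was less certain: the same-level call of *Sp5* was lost without any of the 3 *Nanog* KO libraries or control 24 h replicate 1 or 3, at differences of -0.12 to 0.22. The frizzled receptor *Fzd10* averaged 17.8 ± 1.67 CPM in *Nanog* KO and 19.9 ± 2.61 CPM in control cells at 24 h, with a mean of 76.3 CPM in control cells at 0 h. Its call was lost without *Nanog* KO 0 h replicate 3 or control 24 h replicate 2, at -0.25 and -0.20.

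The contractile genes *Cnn1* and *Actc1* were also near the control 24 h level. *Cnn1* averaged 8.5 ± 0.461 CPM in *Nanog* KO and 7.19 ± 1.09 CPM in control cells at 24 h, with a mean of 48.9 CPM in control cells at 0 h. *Actc1* averaged 9.83 ± 0.645 CPM in *Nanog* KO and 8.99 ± 0.77 CPM in control cells at 24 h, with a mean of 55.2 CPM in control cells at 0 h. The call of *Cnn1* was lost without *Nanog* KO 0 h replicate 1 or control 24 h replicate 3, at 0.26 to 0.33, and that of *Actc1* without control 24 h replicate 1, at 0.18. *Trh*, the precursor of thyrotropin-releasing hormone, averaged 106 ± 4.52 CPM in *Nanog* KO and 85.8 ± 7.66 CPM in control cells at 24 h, and its call was lost without *Nanog* KO 0 h replicate 2 or 3 or control 24 h replicate 1, at 0.31 to 0.38. The membrane protein genes *Tmem176b* and *Tmem246* were under 4 CPM in all 6 libraries, and their calls were each lost without any of 4 libraries: replicates 1 and 2 of *Nanog* KO 0 h and 1 and 3 of control 24 h for *Tmem176b* (-0.24 to -0.16), and replicates 2 and 3 of *Nanog* KO 0 h and 1 and 2 of control 24 h for *Tmem246* (0.18 to 0.29).

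Some genes had passed the control 24 h level in the direction that the control took. The 4 rising genes that were 2-fold higher in *Nanog* KO were *Dnmt3l*, *Hand1*, *Cnga3* and *Steap3*. *Dnmt3l*, the cofactor of the de novo DNA methyltransferases, had 863, 847 and 837 CPM in *Nanog* KO cells at 0 h, against 477, 407 and 375 CPM in control cells at 24 h, and 90.9 and 87.7 CPM in control cells at 0 h. *Hand1*, a factor of trophoblast and extraembryonic mesoderm, had 30.2, 29.9 and 27.5 CPM in *Nanog* KO, against 4.21, 4.64 and 5.43 CPM in control cells at 24 h. All *Nanog* KO libraries of both genes were above all control libraries, by 1.02 ± 0.07 and 2.40 ± 0.10 on the log2 scale (SE, limma adjusted p = 1.77e-10 and 2.64e-13). *Cnga3*, a cyclic-nucleotide-gated channel subunit, averaged 11.1 CPM in *Nanog* KO and 3.54 CPM in control cells at 24 h, and *Steap3*, a ferrireductase, 66.9 and 33 CPM.

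The 39 falling genes that were 2-fold lower in *Nanog* KO included genes of the primitive streak and of posterior axial progenitors. The members named here were chosen after their values were seen. *T* (Brachyury), the T-box factor of the streak, had 1.3, 2.18 and 1.79 CPM in *Nanog* KO cells at 0 h, against 5.53, 5.14 and 4.81 CPM in control cells at 24 h, and 59.5 and 62.5 CPM in control cells at 0 h. *Nkx1-2*, a factor of caudal progenitors, had 0.104, 0.159 and 0.0875 CPM in *Nanog* KO, against 3.65, 3.42 and 3.82 CPM in control cells at 24 h, and a mean of 28.2 CPM in control cells at 0 h. *Gpc3*, a heparan sulfate proteoglycan, averaged 15.3 ± 0.221 CPM in *Nanog* KO and 49.9 ± 2.94 CPM in control cells at 24 h, with a mean of 148 CPM in control cells at 0 h. The 3 genes fell in control cells but were 2-fold below that level in *Nanog* KO cells that had not left 2i. The FGF ligands *Fgf8* and *Fgf17*, the Wnt agonist *Rspo3*, the caudal homeobox gene *Cdx4* and the receptor gene *Kit* had differences of -1.37, -2.21, -2.27, -1.99 and -1.04.

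Genes induced by LIF were mostly higher in *Nanog* KO at 0 h than in control at 24 h. The media differed in LIF, but genotype, line, 2i and serum differed too, so its part cannot be told apart. STAT3, activated by LIF through the receptor and JAK kinases, induces *Socs3*, *Bcl3* and other genes. Of 18 LIF/STAT3 targets tested, 12 were higher and 3 lower in *Nanog* KO at 0 h than in control at 24 h, 9 of them higher by 2-fold, with a median difference of 0.94. *Socs3*, the feedback inhibitor of the LIF receptor, had 166, 171 and 163 CPM in *Nanog* KO cells, against 14.2, 14.5 and 13.4 CPM in control cells at 24 h, a difference of 3.48 ± 0.10 (SE, limma adjusted p = 1.09e-15). *Bcl3*, an IκB-family coregulator, had 77.1, 76.3 and 69 CPM in *Nanog* KO, against 8.42, 9.48 and 9.1 CPM in control cells at 24 h. The groups did not overlap in either gene. The early response genes *Ier3* and *Zfp36* differed by 2.21 ± 0.10 and 1.80 ± 0.06 (SE).

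Other members of the LIF list did not follow. *Pim1*, a kinase gene, had 100, 103 and 99 CPM in *Nanog* KO, against 107, 96.8 and 97.3 CPM in control cells at 24 h, and 200 and 254 CPM in control cells at 0 h, so it stood at the control 24 h level. *Socs2* averaged 77.3 ± 4.64 CPM in *Nanog* KO and 97.2 ± 2.97 CPM in control cells at 24 h, also within the margin, and its level in control cells at 0 h was 47.8 CPM. *Gadd45g*, a stress-response gene, was the single member that was 2-fold lower, at -1.26 ± 0.14 (SE). Of the 11 genes of the LIF receptor machinery, 6 were higher and 2 lower, none by 2-fold. *Lif* and *Stat3* differed by 0.98 and 0.97, *Stat5b* by 0.90 and *Jak1* by 0.75, while the receptor subunit *Il6st* and the phosphatase *Ptpn11* were at the same level. The median of the LIF targets was -1.09 for control at 24 h minus control at 0 h and -0.01 for *Nanog* KO minus control at 0 h. These contrasts share libraries with the comparison.

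Of the AP-1 and EGR families, *Fos*, *Fosb* and *Egr1* stood high in *Nanog* KO cells as well. These genes were named because their differences were among the largest of all genes, so they do not stand for their families. The AP-1 gene *Fosl1* averaged 3.35 CPM in *Nanog* KO and 2.45 CPM in control cells at 24 h, with no difference called (limma adjusted p = 0.0822). *Fos* had 109, 99 and 101 CPM in *Nanog* KO cells at 0 h, against 2.89, 2.05 and 2.13 CPM in control cells at 24 h, a difference of 4.96 ± 0.11 (SE, limma adjusted p = 1.44e-16). *Egr1* had 211, 218 and 209 CPM in *Nanog* KO, against 18.4, 17.3 and 19.4 CPM in control cells at 24 h. Control cells at 0 h had a mean of 168 CPM of *Fos* and 253 CPM of *Egr1*, so both genes were high in the 2 groups kept in 2i/LIF. *Fosb* averaged 23.8 CPM in *Nanog* KO and 0.978 CPM in control cells at 24 h.

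Within the list of 23 ERK targets and feedback genes, the members fell on both sides. In all, 11 (47.8%) were higher and 7 (30.4%) lower in *Nanog* KO, against 31.1% and 32.5% of all genes. By 2-fold 6 were higher and 5 lower, and 6 (26.1%, against 42.6% of all) were at the same level. The median of the list was 0.28. *Ccnd1*, cyclin D1, had 12.5, 14.2 and 13.2 CPM in *Nanog* KO cells at 0 h, against 180, 165 and 170 CPM in control cells at 24 h, a difference of -3.60 ± 0.09 (SE, limma adjusted p = 7.93e-16). Control cells at 0 h, with the MEK inhibitor, had 169 and 177 CPM, so this gene was low in *Nanog* KO and not in either control group. *Etv4* and *Etv5*, ETS factors downstream of ERK, were at the same level. *Etv4* averaged 95.3 ± 3.39 CPM in *Nanog* KO and 100 ± 10.8 CPM in control cells at 24 h (51 CPM in control at 0 h), and *Etv5* 314 ± 6.58 CPM and 380 ± 11.9 CPM. The phosphatase genes *Dusp6* and *Dusp4*, named after their values were seen, were 2-fold lower in *Nanog* KO, at -1.11 ± 0.04 and -1.07 ± 0.08 (SE).

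Nearly all glycolytic and all hypoxia-induced genes tested were higher in *Nanog* KO. Glycolysis turns glucose to pyruvate and lactate, and hypoxia-inducible factors raise many of its enzymes together with *Bnip3*, *Egln3* and *Adm*. Of 24 glycolytic genes, 20 were higher and 1 lower, 13 of them higher by 2-fold, with a median of 1.59. Of 17 hypoxia-induced genes, all were higher, 14 by 2-fold, with a median of 1.81. Genes of a list move together and are not independent replicates.

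The sequences below are the 250 bases before the start of 3 of these genes and of the Wnt target *Sp5*, shown because they hold the letters of the matching response element. They were credited to RefSeq (GRCm38.p6) and run 5′ to 3′ on the strand of the gene. Capitals mark ACGTG on either strand for the first 3 genes (CACGTG holds it on both strands) and CTTTGAT for *Sp5*. The windows are chr7:138909507-138909756 (minus strand) for *Bnip3*, chr7:46845554-46845803 (plus) for *Ldha*, chr12:54203875-54204124 (minus) for *Egln3* and chr2:70474673-70474922 (plus) for *Sp5*. *Ldha* has 2 starts in the table, and the window of the first with a match is shown.
Bnip3: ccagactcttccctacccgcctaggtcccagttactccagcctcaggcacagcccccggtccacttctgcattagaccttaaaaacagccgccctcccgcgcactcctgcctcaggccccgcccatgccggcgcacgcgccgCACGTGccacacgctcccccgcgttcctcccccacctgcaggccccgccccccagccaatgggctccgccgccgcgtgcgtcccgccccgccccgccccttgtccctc
Ldha: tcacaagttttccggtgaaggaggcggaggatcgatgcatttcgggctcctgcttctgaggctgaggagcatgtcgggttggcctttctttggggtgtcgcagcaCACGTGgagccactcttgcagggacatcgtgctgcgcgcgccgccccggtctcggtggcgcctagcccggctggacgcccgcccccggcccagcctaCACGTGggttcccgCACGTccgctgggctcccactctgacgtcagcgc
Egln3: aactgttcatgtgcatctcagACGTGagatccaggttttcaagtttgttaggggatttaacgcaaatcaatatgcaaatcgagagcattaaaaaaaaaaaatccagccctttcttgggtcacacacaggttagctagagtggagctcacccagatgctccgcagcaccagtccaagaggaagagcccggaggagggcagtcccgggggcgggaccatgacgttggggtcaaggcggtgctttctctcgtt
Sp5: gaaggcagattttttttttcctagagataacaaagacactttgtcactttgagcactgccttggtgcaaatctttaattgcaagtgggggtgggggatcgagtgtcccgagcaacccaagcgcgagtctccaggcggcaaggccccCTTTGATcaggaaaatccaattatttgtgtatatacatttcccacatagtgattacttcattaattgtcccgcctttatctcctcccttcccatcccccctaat

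In *Bnip3* the CACGTG begins 108 bases before the start, in *Ldha* the 3 marked runs begin 145, 48 and 34 bases before it, and in *Egln3* the ACGTG begins 229 bases before it. In windows of 250 bases before to 50 after the start, ACGTG on either strand was found in 12 of the 15 hypoxia-induced genes that had a promoter in the table (80.0%) and in 14 of 23 glycolytic genes (60.9%). The share over all 10670 tested genes with a promoter was 28.7%. A list of methylation-sensitive germline genes held it in 77.8%, so the letters are not particular to hypoxia genes. CTTTGAT or CTTTGAA was found in 5 of 13 Wnt targets (38.5%), against 6.82% of all, and TTCCNGGAA, a STAT site, in 2 of 15 LIF/STAT3 targets (13.3%), against 1.5% of all. The next highest list for CTTTGAT or CTTTGAA was the secreted endoderm genes, with 3 of 14 (21.4%). For TTCCNGGAA it was the metallothionein and NRF2 genes, with 1 of 9 (11.1%). A match is a description of letters and no evidence of binding.

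The higher glycolytic genes ran from glucose uptake to lactate. *Slc2a1*, the glucose transporter GLUT1, had 1833, 1832 and 1840 CPM in *Nanog* KO cells at 0 h, against 432, 347 and 346 CPM in control cells at 24 h. *Hk2*, hexokinase 2, which traps glucose in the cell, had 711, 717 and 726 CPM in *Nanog* KO, against 156, 161 and 168 CPM. *Pgk1*, phosphoglycerate kinase, had 2435, 2365 and 2334 CPM in *Nanog* KO, against 452, 491 and 502 CPM in control cells at 24 h. No library of either group overlapped with the other, and the differences were 2.29 ± 0.08, 2.15 ± 0.06 and 2.30 ± 0.06 (SE, limma adjusted p = 1.73e-14, 2.34e-15 and 8.32e-16). The control at 0 h averaged 1672, 474 and 1796 CPM of these genes. *Aldoc*, an aldolase, had the largest difference of the list, at 2.61 ± 0.11 (SE).

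*Ldha*, the lactate dehydrogenase subunit that favours lactate (named for its promoter), averaged 2121 ± 59.5 CPM in *Nanog* KO and 581 ± 25.1 CPM in control cells at 24 h. *Ldhb*, the other main subunit, averaged 317 ± 10.7 CPM in *Nanog* KO and 297 ± 15.4 CPM in control cells at 24 h, at the same level, with a mean of 481 CPM in control cells at 0 h. The monocarboxylate transporter gene *Slc16a1* had 126, 129 and 128 CPM in *Nanog* KO, against 125, 130 and 126 CPM in control cells at 24 h, and a mean of 204 CPM in control cells at 0 h. So 2 genes of lactate handling were at the control 24 h level while *Ldha* was not.

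Among the hypoxia-induced genes, *Bnip3*, a mitophagy receptor, had 340, 323 and 321 CPM in *Nanog* KO cells at 0 h, against 37.6, 35 and 33.8 CPM in control cells at 24 h, and 207 and 189 CPM in control cells at 0 h. *Egln3*, a prolyl hydroxylase that acts back on HIF, had 106, 101 and 94 CPM in *Nanog* KO, against 13.7, 10.5 and 10.3 CPM in control cells at 24 h, and 49.1 and 50.2 CPM in control cells at 0 h. *Adm*, adrenomedullin, had 20.8, 19.5 and 19.8 CPM in *Nanog* KO, against 0.913, 1.04 and 0.734 CPM in control cells at 24 h, and a mean of 7.93 CPM in control cells at 0 h. In these 3 genes the *Nanog* KO stood above the control at either time. *Ndufa4l2*, a HIF target of the mitochondrion, had the largest positive difference of all named genes, with 62, 59.1 and 56.5 CPM in *Nanog* KO, against 0.963, 0.71 and 0.404 CPM in control cells at 24 h (5.16 ± 0.16, SE, limma adjusted p = 8.17e-15). *Ndrg1* differed by 3.43 ± 0.06 (SE), and it lies on chromosome 15, of which more is said at the end. *Mxi1*, a MYC antagonist, was within the margin at 0.28 ± 0.08, a call lost without control 24 h replicate 2 (0.32). For the median of the hypoxia list, control at 24 h minus control at 0 h gave -1.55 and *Nanog* KO minus control at 0 h gave 0.53, with shared libraries.

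**Figure D4:**
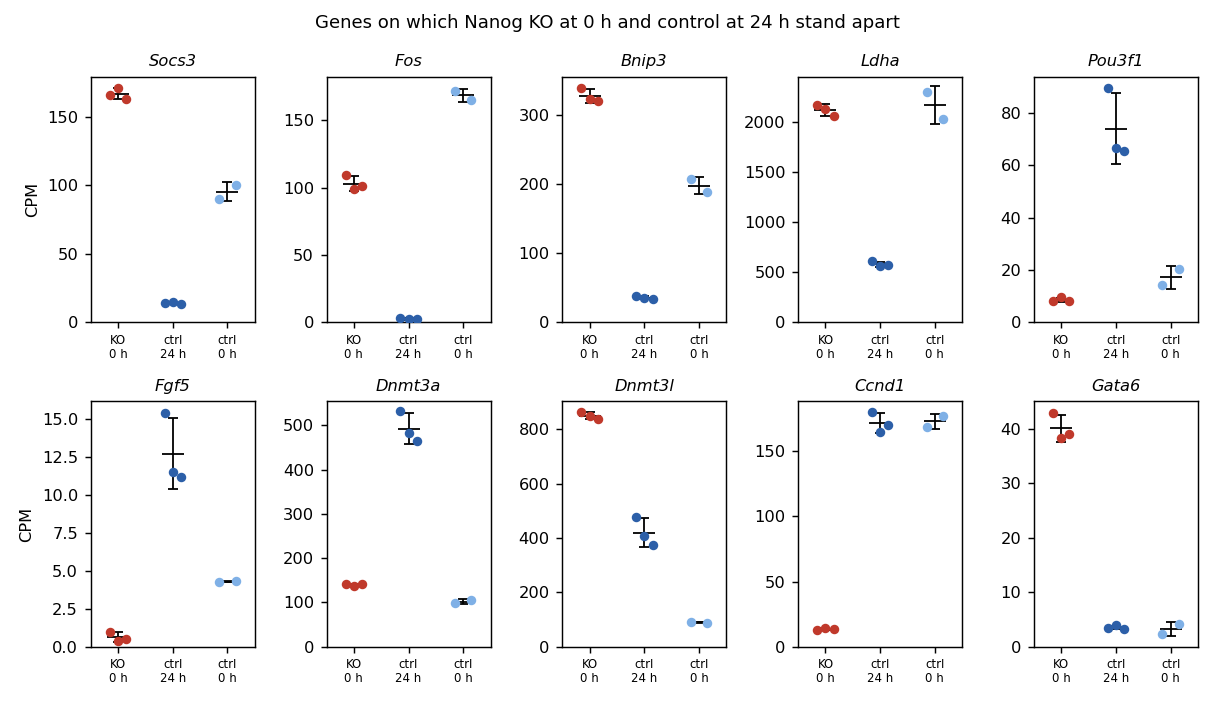
CPM per library in *Nanog* KO at 0 h, control at 24 h and control at 0 h (left to right) for 10 genes on which *Nanog* KO and control at 24 h differed by 2-fold, with means and SD as horizontal marks and bars (n = 3, 3 and 2). *Socs3*, *Fos*, *Bnip3* and *Ldha* are high in both 2i/LIF groups, *Pou3f1*, *Fgf5* and *Dnmt3a* are high in control at 24 h, and *Ccnd1* is low and *Gata6* and *Dnmt3l* are high in *Nanog* KO.

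Formative genes were mostly far below the control 24 h level, despite the level of *Otx2*. Of 24 formative and primed genes, *Nanog* KO at 0 h had 18 lower and 4 higher, 13 of them lower by 2-fold, with a median of -1.03. *Pou3f1*, a POU factor of the anterior epiblast, had 8.28, 9.5 and 8.01 CPM in *Nanog* KO cells, against 89.6, 66.5 and 65.6 CPM in control cells at 24 h (-2.95 ± 0.14, SE, limma adjusted p = 1.57e-12). Control cells at 0 h had 14.1 and 20.3 CPM, also above all *Nanog* KO libraries. *Fgf5*, the FGF ligand that marks the formative epiblast, had 0.989, 0.372 and 0.481 CPM in *Nanog* KO, against 15.4, 11.5 and 11.2 CPM in control cells at 24 h. *Fgf15* averaged 0.516 ± 0.145 CPM in *Nanog* KO and 11.1 ± 0.954 CPM in control cells at 24 h, and *Sox11* differed by -2.95 ± 0.11 (SE). In *Nanog* KO cells at 24 h, *Pou3f1* averaged 106 CPM and *Fgf5* 14.5 CPM. *Igf2bp1*, an RNA-binding protein gene, was at the same level, with a mean of 529 ± 10.6 CPM in *Nanog* KO and 495 ± 12 CPM in control cells at 24 h.

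The enzymes of DNA methylation divided in the same way. DNMT3A and DNMT3B place new methyl groups, DNMT3L helps them, and DNMT1 with UHRF1 copies the marks at replication. *Dnmt3a* had 142, 138 and 141 CPM in *Nanog* KO cells at 0 h, against 532, 482 and 464 CPM in control cells at 24 h (-1.80 ± 0.06, SE, limma adjusted p = 4.61e-15). *Dnmt3b* had 312, 317 and 318 CPM in *Nanog* KO, against 688, 633 and 609 CPM in control cells at 24 h (-1.02 ± 0.08, SE). While both enzymes were below the control 24 h level, their cofactor *Dnmt3l*, given above, was 2-fold above it. *Uhrf1* averaged 444 ± 9.74 CPM in *Nanog* KO and 493 ± 31.3 CPM in control cells at 24 h, and *Dnmt1* 361 ± 9.03 CPM and 403 ± 13.5 CPM, both at the same level. The helicase gene *Hells* differed by -0.90 ± 0.06 (SE). In the list of 12, 8 were lower and 1 higher, with a median of -0.44.

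Most neural genes were lower. Of 17, 12 were lower and 1 higher in *Nanog* KO, 9 of them lower by 2-fold, with a median of -1.20. *Nnat*, an imprinted neuronal gene, had 5.52, 7.48 and 6.26 CPM in *Nanog* KO cells at 0 h, against 52.5, 42.1 and 48.3 CPM in control cells at 24 h. *Tubb3*, neuronal β-tubulin, had 15.5, 16.9 and 16.8 CPM in *Nanog* KO, against 99.8, 87.9 and 91.1 CPM. *Sox3*, a SOXB1 factor of the neural plate, had 1.56, 0.955 and 0.875 CPM in *Nanog* KO, against 10.9, 7.73 and 9.58 CPM in control cells at 24 h. The 3 genes were also higher in the control at 0 h, with means of 75.9, 68.1 and 12.7 CPM. *Sox1* was the single member that was higher, at 0.60 ± 0.19 (SE, limma adjusted p = 0.0105), a call lost without *Nanog* KO 0 h replicate 3 (0.50).

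Other genes that the study names, several of them of neural or mesodermal fates, were low in both groups. *Sox8* averaged 0.19 CPM in *Nanog* KO and 0.846 CPM in control cells at 24 h, *Mef2c* 0.295 and 1.6 CPM and *Tbx2* 0.693 and 3.42 CPM, each called lower (limma adjusted p = 0.00372, 3.24e-05 and 9.83e-07). *Chd5*, a chromatin remodeller, averaged 6.15 ± 0.136 CPM in *Nanog* KO and 10.5 ± 0.282 CPM in control cells at 24 h (-0.69 ± 0.09, SE). *Fgf3*, *Clic5* and *Nptx1* stood at 1.04, 1.01 and 0.774 CPM in *Nanog* KO and at 1.1, 0.757 and 1.2 CPM in control cells at 24 h. No difference was called for these 3 genes (adjusted p = 0.856, 0.217 and 0.343), and at these levels a few reads decide the value.

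Core pluripotency genes were mostly lower, and about as few were 2-fold apart as among all genes. Of 20, 14 were lower and 3 higher in *Nanog* KO at 0 h, with a median of -0.31. By 2-fold 1 was higher and 1 lower (5.0% each, against 5.57% and 5.73% of all genes). The same level was called for 9 (45.0%, against 42.6% of all genes), a share close to the background. *Pou5f1* had 1038, 1006 and 978 CPM in *Nanog* KO cells, against 1419, 1188 and 1156 CPM in control cells at 24 h and 735 and 650 CPM in control cells at 0 h. Its difference was -0.31 ± 0.08 (SE, limma adjusted p = 0.00384), with every *Nanog* KO library below every control library at 24 h. *Sox2* averaged 321 ± 4.97 CPM in *Nanog* KO and 359 ± 9.21 CPM in control cells at 24 h, at the same level. *Tcf7l1*, a repressor of the network, averaged 100 ± 3.43 CPM in *Nanog* KO and 124 ± 9.79 CPM in control cells at 24 h, and *Utf1* 262 ± 6.9 CPM and 352 ± 70.4 CPM. *Gdf3*, a TGF-β family ligand, was higher in *Nanog* KO, at 0.58 ± 0.05 (SE).

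The 2 core genes that were 2-fold apart had opposite signs. *Tdgf1*, the Nodal coreceptor Cripto, had 902, 910 and 916 CPM in *Nanog* KO cells at 0 h, against 309, 346 and 324 CPM in control cells at 24 h (1.48 ± 0.05, SE, limma adjusted p = 1.97e-14). *Foxd3*, a forkhead factor that rises toward the formative state, had 14.4, 16 and 18 CPM in *Nanog* KO, against 49.3, 35.7 and 32 CPM in control cells at 24 h (-1.20 ± 0.16, SE). Control cells at 0 h had a mean of 9.88 CPM of *Foxd3*, below all *Nanog* KO libraries.

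Naive factors were on both sides of the control 24 h level. Of 20, 7 (35.0%) were higher and 9 (45.0%) lower, against 31.1% and 32.5% of all genes. By 2-fold 3 were higher and 4 lower, and 7 (35.0%, against 42.6% of all) were at the same level. *Tbx3*, a T-box factor of the naive network, had 198, 193 and 202 CPM in *Nanog* KO cells, against 44.3, 44.7 and 48.8 CPM in control cells at 24 h (2.08 ± 0.07, SE). *Klf2* and *Klf5*, named after their values were seen, were the other 2-fold higher members, at 1.08 ± 0.09 and 1.28 ± 0.14. *Esrrb* averaged 210 ± 6.31 CPM in *Nanog* KO and 237 ± 10.5 CPM in control cells at 24 h, against 342 CPM in control cells at 0 h. This nuclear receptor gene, a direct target of NANOG, thus stood at the level to which it fell in control cells in serum. *Zfp42* (Rex1) was at the same level as well, with a mean of 422 ± 4.46 CPM in *Nanog* KO and 484 ± 30.9 CPM in control cells at 24 h.

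*Fgf4*, *Nr0b1* and *Dppa3* had the largest negative differences of the naive list, and *Ooep*, at -1.04, was the other 2-fold lower member. *Fgf4*, the main FGF ligand of ES cells, had 36.6, 35.2 and 36.8 CPM in *Nanog* KO cells at 0 h, against 176, 170 and 162 CPM in control cells at 24 h, and 60.6 and 64.7 CPM in control cells at 0 h. *Nr0b1* (Dax1) had 43.9, 41 and 42.1 CPM in *Nanog* KO, against 156, 136 and 129 CPM in control cells at 24 h, and 44.7 and 42.9 CPM in control cells at 0 h. Both genes were higher after serum in the control, and the *Nanog* KO stood at or below the level of 2i medium. *Dppa3* (Stella) had 17.1, 13.4 and 14.1 CPM in *Nanog* KO, against 50.1, 48.7 and 49.1 CPM in control cells at 24 h and a mean of 40.2 CPM in control cells at 0 h.

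More Wnt targets were lower than higher in *Nanog* KO at 0 h. The GSK3 inhibitor was in the *Nanog* KO medium and not in that of the control at 24 h, and its part was not tested. Of 22 genes, *Nanog* KO had 14 lower and 5 higher, 7 and 1 of them by 2-fold, with a median of -0.39. *Lef1*, a nuclear partner of β-catenin, had 3.91, 4.78 and 4.81 CPM in *Nanog* KO cells at 0 h, against 50.2, 42.3 and 44.6 CPM in control cells at 24 h (-3.09 ± 0.10, SE, limma adjusted p = 5.68e-15). Control cells at 0 h had 34.7 and 39.7 CPM, so *Lef1* was low in *Nanog* KO and in neither control group. *Tcf7* was at the same level, with a mean of 52.2 ± 1.56 CPM in *Nanog* KO and 59.1 ± 1.89 CPM in control cells at 24 h, against 90.7 CPM in control cells at 0 h. *Axin2*, the negative feedback gene of the pathway, averaged 14.8 ± 0.676 CPM in *Nanog* KO and 18.6 ± 1.55 CPM in control cells at 24 h, with 39.4 CPM in control cells at 0 h. The same-level call of *Axin2* was lost without *Nanog* KO 0 h replicate 2 or 3 or control 24 h replicate 2 or 3, at -0.36 to -0.31. *Cdx1*, a caudal homeobox gene, was the single 2-fold higher member, with 11.2, 11.8 and 11.1 CPM in *Nanog* KO, against 1.47, 1.67 and 1.91 CPM in control cells at 24 h and a mean of 37 CPM in control cells at 0 h.

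Hox genes, which pattern the trunk along its axis, were mostly lower in *Nanog* KO at 0 h than in the control at 24 h, while the control itself was lower at 24 h than at 0 h (a median of -0.95, with shared libraries). The search used 52 Hox names, not all of which exist as genes, and 32 were in the data. Of the 29 tested, 25 were lower and 2 higher, 19 and 2 by 2-fold, and the median was -1.31. *Hoxa9* had 0.208, 0.0531 and 0.35 CPM in *Nanog* KO cells, against 8.47, 7.06 and 8.58 CPM in control cells at 24 h, and 16.9 and 16.2 CPM in control cells at 0 h. *Hoxb2* had 0.521, 0.318 and 0.306 CPM in *Nanog* KO, against 5.83, 6.1 and 5.5 CPM, and *Hoxd3* had 0, 0.106 and 0 CPM, against 5.73, 4.59 and 3.71 CPM in control cells at 24 h. The *Nanog* KO values of *Hoxd3* are at or under 3 reads a library, so its difference of -2.44 depends on the 1 CPM added. *Hoxc10* differed by -2.91 ± 0.16 (SE). *Hoxc13*, on chromosome 15, was higher in *Nanog* KO, at 1.47 ± 0.15 (SE). With genes under a mean of 5 CPM left out or 0.1 CPM added in place of 1, the median of the tested Hox genes ran down to -2.59.

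**Figure D5:**
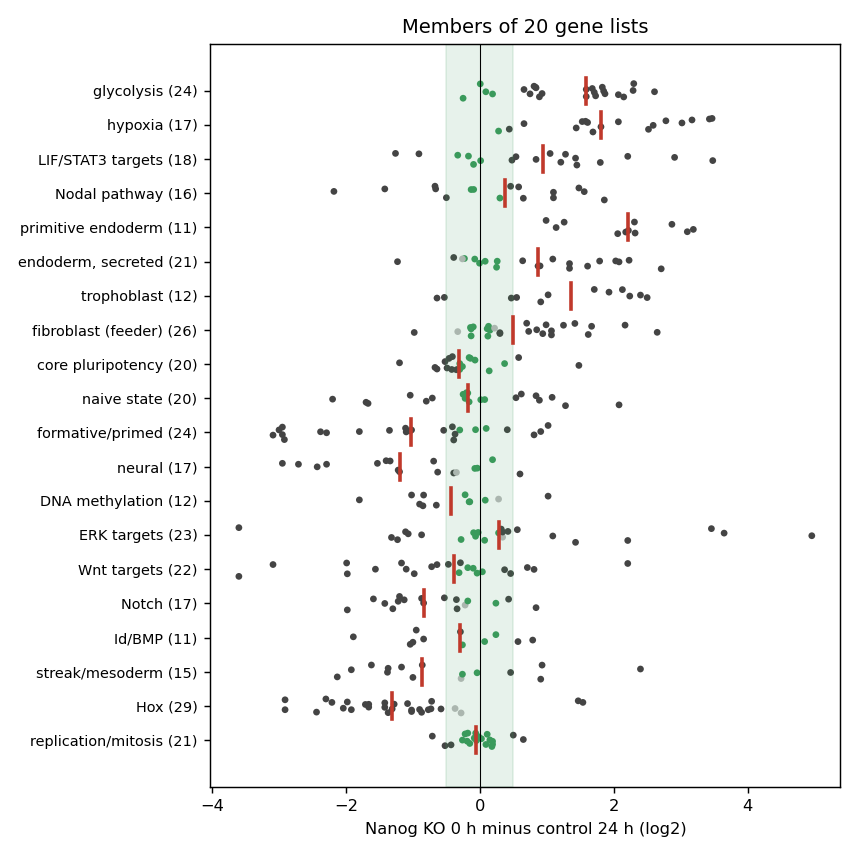
Difference of *Nanog* KO at 0 h minus control at 24 h (horizontal axis, log2) for each tested member of 20 gene lists (rows, number of members in brackets). Green points are at the same level, dark points are called different without being at the same level, grey points are neither, red bars are medians and the shaded band is the margin of 0.5. Glycolysis, hypoxia and primitive endoderm genes lie to the right and Hox, neural and formative genes to the left.

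In the streak, Notch and Id/BMP lists more genes were lower than higher. Of 15 streak and mesoderm genes, *Nanog* KO had 9 lower and 4 higher, 6 and 1 by 2-fold. The median of -0.86 turned to 0.10 when genes under a mean of 5 CPM were left out. *Kdr*, the VEGF receptor of blood and vessel precursors, had 1.25, 0.902 and 1.01 CPM in *Nanog* KO, against 8.52, 6.6 and 8.88 CPM in control cells at 24 h. Of 17 Notch genes, 12 (70.6%) were lower and 3 (17.6%) higher, against 32.5% and 31.1% of all genes, with a median of -0.84. The ligand gene *Jag1* had 5.94, 6.48 and 7.09 CPM in *Nanog* KO, against 29.3, 28.4 and 27.8 CPM in control cells at 24 h (-1.98 ± 0.08, SE), and *Dll1* differed by -1.59 ± 0.10. *Notch3* was at the same level, with means of 88.2 CPM in *Nanog* KO and 100 CPM in control cells at 24 h. Of 11 Id and BMP genes, 7 (63.6%) were lower and 3 (27.3%) higher, with 3 at the same level (27.3%, against 42.6% of all genes) and a median of -0.29. *Id3*, a BMP target that blocks bHLH factors, had 16.6, 16.3 and 14.2 CPM in *Nanog* KO, against 66.8, 54.6 and 61.1 CPM in control cells at 24 h and a mean of 70.8 CPM in control cells at 0 h.

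Primitive endoderm factors were high in *Nanog* KO at 0 h. This extraembryonic lineage parts from the epiblast in the blastocyst, and NANOG holds down its factor GATA6 in the epiblast. All 11 genes tested were higher in *Nanog* KO, 10 by 2-fold, with a median of 2.22. *Gata6* had 43, 38.4 and 39.1 CPM in *Nanog* KO cells, against 3.5, 3.88 and 3.16 CPM in control cells at 24 h (3.19 ± 0.16, SE, limma adjusted p = 4.15e-12). *Gata4* had 25, 29.9 and 23.8 CPM in *Nanog* KO, against 2.43, 3.09 and 1.25 CPM, and *Sox7* 15.3, 14 and 13.9 CPM, against 0.76, 1.25 and 1.32 CPM in control cells at 24 h. The summed level of the 11 genes was 208.2 to 218.7 CPM in *Nanog* KO libraries and 32.95 to 35.29 CPM in control libraries at 24 h. The control at 0 h was low too, with means of 3.27 CPM of *Gata6* and 3.34 CPM of *Gata4*.

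Of 21 genes of the secreted matrix and lysosome of endoderm, 14 were higher and 3 lower, 9 and 1 by 2-fold, with a median of 0.87. *Lama1*, a laminin chain of the basement membrane, had 213, 230 and 238 CPM in *Nanog* KO, against 33.8, 38.7 and 29.3 CPM in control cells at 24 h (2.71 ± 0.09, SE). *Col4a1*, type IV collagen, averaged 449 ± 9.16 CPM in *Nanog* KO and 105 ± 2.4 CPM in control cells at 24 h. *Ctsl* and *Apoe* differed by 2.23 ± 0.06 and 2.03 ± 0.10 (SE). *Fn1*, fibronectin, was at the same level, with a mean of 1011 ± 45 CPM in *Nanog* KO and 956 ± 48.9 CPM in control cells at 24 h.

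Of 12 trophoblast markers, 10 were higher and 2 lower, 7 of them higher by 2-fold, with a median of 1.37. *Tead4* averaged 58 ± 1.94 CPM in *Nanog* KO and 11.5 ± 0.133 CPM in control cells at 24 h. The keratin genes *Krt7* and *Krt18* differed by 2.50 ± 0.09 and 2.13 ± 0.07 (SE) and lie on chromosome 15. The trophoblast factors *Cdx2* and *Elf5* were the 2 lower members, at means of 4.06 and 0.198 CPM in *Nanog* KO and 6.92 and 0.725 CPM in control cells at 24 h. The summed level of the list was 1740 to 1816 CPM in *Nanog* KO and 491.4 to 547.1 CPM in control libraries, and most of it was keratin.

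Nodal pathway genes were on both sides, with 9 of 16 higher (56.2%) and 5 lower (31.2%), against 31.1% and 32.5% of all genes. Nodal signals through Cripto and is checked by the Lefty proteins. *Lefty2* had 496, 500 and 499 CPM in *Nanog* KO cells at 0 h, against 132, 141 and 135 CPM in control cells at 24 h, and *Lefty1* 242, 249 and 229 CPM, against 91, 78.8 and 73.1 CPM. Both inhibitors differed by over 2-fold, at 1.86 ± 0.09 and 1.56 ± 0.13 (SE). *Cer1*, another secreted inhibitor, was lower, with 0.156, 0.106 and 0.131 CPM in *Nanog* KO, against 6.49, 3.84 and 2.71 CPM in control cells at 24 h. The effector *Smad4* and the corepressor *Skil* were at the same level.

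Among metabolic and stress lists, the differences were smaller. Of 24 sterol synthesis genes, 15 were higher and 2 lower, with 12 at the same level and a median of 0.34. *Msmo1* averaged 131 ± 0.688 CPM in *Nanog* KO and 72.4 ± 5.98 CPM in control cells at 24 h. Of 13 fatty acid synthesis genes, 5 (38.5%) were higher and 7 (53.8%) lower. *Fasn*, fatty acid synthase, had 268, 264 and 278 CPM in *Nanog* KO, against 616, 565 and 596 CPM in control cells at 24 h, while *Me1*, malic enzyme, averaged 111 ± 4.05 CPM in *Nanog* KO and 40.2 ± 1.01 CPM in control cells at 24 h. Of 24 genes of the integrated stress response, 13 (54.2%) were higher and 4 (16.7%) lower. *Stc2*, stanniocalcin 2, averaged 31.9 ± 1.67 CPM in *Nanog* KO and 3.82 ± 0.231 CPM in control cells at 24 h, and *Cbs*, of cysteine synthesis, 8.44 ± 0.528 CPM and 31.4 ± 2.62 CPM. Of 12 metallothionein and NRF2 genes, 4 (33.3%) were higher and 8 (66.7%) lower. *Mt1* had 740, 727 and 696 CPM in *Nanog* KO, against 281, 250 and 248 CPM, and *Nqo1*, a quinone reductase, 31.1, 30.7 and 30 CPM, against 64.4, 68.9 and 64.5 CPM in control cells at 24 h.

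Replication and mitosis genes had the largest share of the 33 lists at the control 24 h level. Of 21, 16 were at the same level (76.2%, against 42.6% of all genes), with a median difference of -0.05. These were well expressed genes, with a median level of 268 CPM in *Nanog* KO at 0 h. Among all tested genes averaging 5 CPM or more, the same-level share was 52.0%, still below that of the list. How far expression level set the order of the lists was not tested. *Top2a* averaged 802 ± 7.53 CPM in *Nanog* KO and 704 ± 46.3 CPM in control cells at 24 h, and the helicase gene *Mcm2* 442 ± 4.44 CPM and 531 ± 41.1 CPM. Polycomb genes had 12 of 21 at the same level (57.1%, against 42.6% of all genes). *Phf19*, an accessory subunit of PRC2, was the single 2-fold member, with means of 15.7 CPM in *Nanog* KO and 40.4 CPM in control cells at 24 h. Of 18 genes of the G1 cell cycle, 3 were higher and 13 lower. *Cdkn1b*, the inhibitor p27, averaged 63.5 ± 0.745 CPM in *Nanog* KO and 31.6 ± 1.87 CPM in control cells at 24 h, while *Ccnd1* was lower. In the MYC network *Mycl* and *Mycn* were 2-fold lower, at -1.40 ± 0.10 and -1.20 ± 0.12 (SE), and *Max* and *Mlx* were at the same level.

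Beyond the lists, the largest differences were in single genes of varied kind. *Bhmt*, a methyltransferase of methionine synthesis, had 42, 44.5 and 43.5 CPM in *Nanog* KO cells, against 1.42, 0.71 and 0.954 CPM in control cells at 24 h and a mean of 4.02 CPM in control cells at 0 h. *Bhlhe40*, a bHLH repressor, averaged 258 ± 6.34 CPM in *Nanog* KO and 21.3 ± 1.25 CPM in control cells at 24 h, with 148 CPM in control cells at 0 h. *Tinagl1*, a matrix protein gene, averaged 138 ± 4.38 CPM in *Nanog* KO and 11.9 ± 1.3 CPM in control cells at 24 h, and *Il1rl1*, the IL-33 receptor, 12.9 ± 2.13 CPM and 0.194 ± 0.215 CPM. These 4 genes were higher in *Nanog* KO than in either control group.

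On the lower side, *Mest*, an imprinted gene, had 22.9, 20.7 and 22.8 CPM in *Nanog* KO cells, against 356, 340 and 372 CPM in control cells at 24 h and 215 and 228 CPM in control cells at 0 h (-3.95 ± 0.05, SE, limma adjusted p = 1.57e-20). *Esrp1*, a regulator of epithelial splicing, averaged 7.38 ± 0.998 CPM in *Nanog* KO and 83.3 ± 1.49 CPM in control cells at 24 h, and *Igfbp5*, an IGF-binding protein gene, 6.49 ± 0.676 CPM and 76.9 ± 5.91 CPM. Both were low in *Nanog* KO and in neither control group. *Megf10*, an engulfment receptor, had 0.104, 0.159 and 0.35 CPM in *Nanog* KO, against 16.6, 16.6 and 17.8 CPM in control cells at 24 h and a mean of 1.06 CPM in control cells at 0 h. *Fbn2*, *Ccno*, *Myo1f*, *Tril* and *Sema5a* rose in control cells in serum and were lower in *Nanog* KO by -3.86, -3.66, -3.59, -3.18 and -3.01, all with *Nanog* KO means under 1.5 CPM. The largest negative value, -5.38 ± 0.80 (SE), belonged to the processed pseudogene *Rps16-ps2*, with 0, 0 and 0.35 CPM in *Nanog* KO, against 22.3, 63.9 and 63 CPM in control cells at 24 h. Its reads may be shared with near-identical copies, so this value is uncertain.

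Fibroblast markers were checked because the cells grew over feeders. Of 26 markers tested, 16 were higher and 1 lower in *Nanog* KO at 0 h, 8 of them higher by 2-fold, with a median of 0.50 and 8 at the same level. Their summed level was 2015 to 2213 CPM in *Nanog* KO and 1330 to 1507 CPM in control libraries at 24 h. Control at 24 h minus control at 0 h gave a median of -0.78 for these markers, and *Nanog* KO minus control at 0 h gave -0.21, with shared libraries. By this median the markers were not higher in *Nanog* KO than in the control at 0 h, but single markers went both ways. *Ctgf* averaged 259 CPM in *Nanog* KO and 147 CPM in control cells at 0 h, and *Col1a1* 437 and 595 CPM. *Lox*, a collagen crosslinker, had 59.8, 70.1 and 68.7 CPM in *Nanog* KO, against 7.4, 9.56 and 12.8 CPM, while *Col1a2* averaged 204 ± 11.7 CPM in *Nanog* KO and 219 ± 25 CPM in control cells at 24 h, at the same level. The part of feeder RNA in the matrix genes higher in *Nanog* KO was not tested. The 9 blood markers tested summed to 107 to 112.8 CPM in *Nanog* KO and 108.9 to 113.8 CPM in control libraries, mostly *Pecam1*.

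Genes of chromosome 15 were higher in *Nanog* KO as a group. Their median difference was 0.42 over 588 genes, of which 62.8% were higher and 12.6% lower, while the median of every other autosome lay between -0.09 and 0.08. For *Nanog* KO minus control at 0 h the median of the chromosome was 0.42 as well. Its part in the values of single chromosome 15 genes (*Ndrg1*, *Krt7*, *Krt18* and *Hoxc13*, which were higher, and *Hoxc10* and *Sema5a*, which were lower) was not tested. Without the chromosome, 767 genes were 2-fold higher, 846 were 2-fold lower and 6290 of 14529 were at the same level.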

How the data were processed

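RNA-seq of mouse ES cells was read from a table of 17 libraries. The deposited values are a normalized signal: the authors trimmed reads with cutadapt 1.3, quantified genes on GRCm38 with RSEM (1.2.3 in the processing notes, another version in the methods) and gave CPM of TMM-scaled library sizes. Base calling was with CASAVA 1.8.2. The methods name ComBat, but all values were whole multiples of 1 read (tolerance 0.001 reads) and recomputed TMM gave back the scaling. A further control 0 h library was not analysed here. RNA isolation is described differently in different label fields, and the labels do not say whether feeders were removed.

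limma 3.58.1 (R 4.3.3) was fitted with a trend to log2(CPM + 1) of all 17 libraries, with a coefficient for each genotype and time. Genes were tested if at least 1 CPM was reached in 3 libraries, and p-values were adjusted over all 15117 genes. A call needed an adjusted p under 0.05, and the same-level call 2 one-sided tests against 0.5. Alternatives were edgeR 4.0.16 and DESeq2 1.42.0 on recovered reads, other scalings, pseudocounts, filters, limits and margins, and each library left out. Scripts were tested on simulated data.

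Members, gene lists and tests were chosen with earlier results of these data known. Named genes were those the study names, the 10 largest differences each way (mean of at least 5 CPM in the higher group), of the control 12 h response genes that also changed at 24 h 10 rising and 10 falling at the same level and 6 of each with the largest difference, and of each list up to 4 called members and up to 2 at the same level. Predicted genes were left out of the sets of 10 and 6. Of 15470 rows, 127 had no symbol, and 15342 matched GENCODE M21. Replicate numbers were not used as pairs in the main fit, and whether they pair the samples was not settled. Some genes that the rule names are not reported here.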

Additional observations from a re-analysis of the deposited data

How the results depend on the processing

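No called difference of a named gene outside the same-level class changed direction under any alternative run. For named genes at the same level the direction was not checked. The medians of 3 lists did: streak and blood genes at a mean of at least 5 CPM (0.10 and 0.07), and polycomb genes without *Nanog* KO 0 h replicate 1 or 2 or control 24 h replicate 1 (0.02 to 0.04). With genes under a mean of 5 CPM left out, 480 genes were 2-fold lower, 70 of the rising and 16 of the falling genes were 2-fold lower, and the median difference was 0.01. The median was -0.01 under median-ratio scaling. Quantile normalization gave 2 rising genes 2-fold higher. With 0.1 CPM added, 1429 genes were 2-fold lower, as were 306 rising and 69 falling genes, while 25 rising and 291 falling genes were 2-fold higher, 29 falling genes were at the same level and the median was -0.02. With a limit of 0.5, 2415 genes were higher and 2661 lower, and with a limit of 2, 143 and 127. A margin of 0.32 gave 2231 genes at the same level, 6 of them rising and 5 falling, and a margin of 1 gave 12270, with 145 rising and 170 falling. With a 12 h change of 0.5, 316 rising and 113 falling genes were 2-fold lower, 32 rising and 371 falling genes 2-fold higher, and 320 rising and 370 falling genes at the same level. With a 12 h change of 2 these counts were 11 and 4, 0 and 36, and 0 and 1. By edgeR 1501 genes were 2-fold lower, with 332 rising and 80 falling, and 28 rising and 308 falling were 2-fold higher. By DESeq2 the same counts were 1464, 313, 76, 27 and 300, with 33 falling genes at the same level and a median of -0.01. The causes were not tested. The same-level test was not run in edgeR.

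Leaving out each library in turn gave 4362 to 4798 genes higher, 4529 to 5020 lower, 837 to 867 2-fold higher, 851 to 900 2-fold lower and 5696 to 6618 at the same level. Of the rising genes, 103 to 124 were 2-fold lower, 2 to 9 were 2-fold higher and 19 to 40 were at the same level. Of the falling genes, 168 to 184 were 2-fold higher, 36 to 41 were 2-fold lower and 36 to 57 were at the same level, and the median was -0.02 to -0.01. The correlations of same-numbered libraries of the groups compared were 0.0944, -0.119 and 0.139. Libraries of different number gave -0.201 to 0.129. From 3 libraries a group these values cannot settle whether the numbers pair the samples. With the replicate block, 4635 genes were higher, 4819 lower and 6322 at the same level, and the same-level calls of *Clic5* and *Pou5f1* were lost. The 3 libraries a group and a single line limit every value, and genes near 1 CPM rest on few reads.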

Other observations

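Lists not described above were mixed. Of 20 germline genes silenced by DNA methylation, 9 (45.0%) were higher and 5 (25.0%) lower in *Nanog* KO at 0 h than in control at 24 h. Over all genes the shares were 31.1% and 32.5%. The median of the list was 0.21. *Taf7l*, a germ cell TFIID subunit, had 35.3, 30.3 and 32.3 CPM in *Nanog* KO, against 7.71, 8.06 and 7.3 CPM in control cells at 24 h (1.95 ± 0.09, SE). *Sycp3*, of the synaptonemal complex, averaged 44.9 ± 1.23 CPM in *Nanog* KO and 17.5 ± 0.982 CPM in control cells at 24 h (SD, n = 3 each). In both genes the groups did not overlap. Of 16 p53 targets, 9 (56.2%) were higher and 6 (37.5%) lower. The 2-fold higher members were the apoptosis genes *Pmaip1* and *Perp*, at 1.76 ± 0.07 and 1.56 ± 0.07 (SE). *Cdkn1a*, the inhibitor p21, averaged 140 ± 1.88 CPM in *Nanog* KO and 87.7 ± 7.67 CPM in control cells at 24 h.

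Of 11 heat shock genes, 5 (45.5%) were higher and 5 (45.5%) lower, against 31.1% and 32.5% of all genes, and none by 2-fold. *Hsp90aa1* averaged 6512 ± 11.3 CPM in *Nanog* KO and 4556 ± 338 CPM in control cells at 24 h (SD, n = 3 each), while the chaperone genes *Hspa8* and *Hspd1* were at the same level. Of 8 genes of the 2-cell-like state, 4 were lower by 2-fold and none was higher. *Zscan4f* had 10.4, 10.1 and 8.45 CPM in *Nanog* KO, against 18.5, 37.8 and 28 CPM in control cells at 24 h, and it has near-identical copies, so its value and those of *Zscan4c* and *Zscan4d* are uncertain.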
